A study of Mus musculus with 8 samples.

Results

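The Snrpn and Peg3 imprinted domains are a pair of chromosome 7 regions of the mouse in which genes are expressed mainly or only from the copy of 1 parent, the paternal one for all genes described here except Ube3a. DNA methylation was described here for 7 genes, 5 of the Snrpn domain (Snrpn, Ndn, Magel2, Mkrn3 and Ube3a) and 2 of the Peg3 domain (Peg3 and Usp29), out of 21700 genes with 3 or more measured CpGs. A CpG counted as a member when it lay in the body of a gene or within 5 kb of either end (build mm10) and was covered by at least 10 reads in all 8 libraries, with its strands added. This gave 114 of 441994 autosomal CpGs: 68 in Ube3a, 16 in Usp29, 11 in Snrpn, 11 in Magel2, 4 in Mkrn3, 4 in Peg3 and none in Ndn. For Ndn, 16 CpGs with at least 5 reads in at least 3 libraries per group were used instead, and the same lower minimum is named wherever it extends the view of another gene.

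Methylation was read by reduced representation bisulfite sequencing (RRBS), in which a restriction digest selects CpG-rich fragments and bisulfite marks every unmethylated cytosine. The cells were nephron progenitors, the kidney cells that express Six2 and give rise to nephrons, sorted by green fluorescence from E17.5 embryos. All embryos were CD1 outbred crosses that carry 1 copy of Tg(Six2-EGFP/cre), whose reporter is driven from Six2 sequences, so the controls carry the transgene too. In the restricted group the dams were fed 70% of the mean daily intake, once a day, in the unrestricted group they ate freely, and each group had 4 libraries. Whether 1 library holds 1 litter or several is not stated and the sexes were not separated, so p-values measure the spread between these libraries, which may be technical in part. DNA methylation does not show which cells were sorted, and promoter CpGs could be measured at 3 of 10 listed progenitor genes, with means of 0.0394 to 0.0873% methylated. Those of other cell types were about as low where measured: 0.0237 to 0.0450% at 2 of 3 stromal genes, 0.0767% at 1 of 4 ureteric bud genes and 0.194% at 1 of 5 blood genes, with 0 of 3 podocyte and 0 of 4 endothelial genes measured.

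Imprinted domains are governed by control regions that are methylated on the copy from one parent and free of methylation on the other, so that a mixture of both copies reads as intermediate. At Snrpn and at Peg3 the control region lies at the gene's start and the maternal copy is the methylated one. The protein ZFP57 binds the methylated motif TGCCGC and helps to keep such marks in the early embryo, and YY1 binds CCATNTT, a motif repeated inside the Peg3 control region. Snrpn encodes a spliceosome protein, and its start also drives the long Snhg14 transcript that silences paternal Ube3a in neurons.

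Start windows of 3 genes are shown because they are the ones that hold measured CpGs. Each runs 5′ to 3′ on the strand of its gene, from 250 bases before the start site to 50 after it, from RefSeq (GRCm38.p6, the coordinates of mm10). Capitals mark the measured CpGs, 4 of 7 in Snrpn (chr7:60005150-60005449, minus strand) and 8 of 29 in Ube3a (chr7:59228500-59228799, plus strand) at 10 reads in all 8 libraries, and 5 of 15 in Mkrn3 (chr7:62420104-62420403, minus strand) at the lower minimum.
Snrpn: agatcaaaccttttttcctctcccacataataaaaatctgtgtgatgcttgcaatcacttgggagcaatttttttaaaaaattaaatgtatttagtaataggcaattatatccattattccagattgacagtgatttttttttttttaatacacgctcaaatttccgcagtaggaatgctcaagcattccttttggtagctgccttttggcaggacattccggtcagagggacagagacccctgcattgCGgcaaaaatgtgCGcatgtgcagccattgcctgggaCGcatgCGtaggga
Ube3a: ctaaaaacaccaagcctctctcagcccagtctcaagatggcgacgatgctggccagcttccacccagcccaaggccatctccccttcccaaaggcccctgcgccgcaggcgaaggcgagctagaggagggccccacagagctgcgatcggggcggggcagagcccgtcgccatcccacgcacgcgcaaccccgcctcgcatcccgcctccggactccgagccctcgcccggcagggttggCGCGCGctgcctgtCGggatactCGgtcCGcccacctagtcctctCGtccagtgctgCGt
Mkrn3: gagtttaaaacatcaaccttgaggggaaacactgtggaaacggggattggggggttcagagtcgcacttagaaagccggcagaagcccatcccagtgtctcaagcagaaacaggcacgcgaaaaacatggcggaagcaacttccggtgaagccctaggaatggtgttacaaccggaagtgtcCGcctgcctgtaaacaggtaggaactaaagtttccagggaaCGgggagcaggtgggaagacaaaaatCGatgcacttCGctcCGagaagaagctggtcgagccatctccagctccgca
On either strand, TGCCGC was matched once in the Snrpn window and in none of the other 6 genes' windows, against 11.6% of 32851 windows of 300 bases in the same table. The match is on the strand opposite to the one printed, and the CpG inside it is the one at the start site (first capitals), which was at 26.9% ± 15.0 in the restricted and 36.8% ± 13.1 in the unrestricted group (SD, n = 4 each). CCATNTT was matched once each in the windows of Magel2, Mkrn3 and Ube3a, against 16.1% of all windows, with no measured CpG inside, and the motifs did not overlap each other. The start windows of Ndn, Magel2, Peg3 and Usp29 held no measured CpG under either minimum.

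The control region at the Snrpn start was partly methylated in every library and differed more between libraries than between diets. Snrpn spans chr7:59982495-60450177 on the minus strand, counting distal starts, and the start described here is at 60005199. The 9 CpGs lie in the 1 kb tile chr7:60005001-60006000, from the start site to 88 bp inside the gene. The tile's level was 14.5, 21.3, 45.2 and 25.8% in restricted libraries 1 to 4 and 37.2, 53.8, 32.7 and 22.5% in unrestricted libraries 1 to 4. Restricted libraries 1 and 2 were the lowest of all, restricted library 3 was the second highest, and the groups overlapped. The means were 26.7% ± 13.2 and 36.5% ± 13.05 (SD, n = 4 each), a difference of -9.84 percentage points that the logistic model did not call (adjusted p = 0.773 over 33897 tiles).

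Within a library the 9 CpGs moved together, with a range of 2.56 to 11.1 points between the lowest and highest CpG. Read counts were nearly equal at all 9 (26 at each in restricted library 1, 51 to 54 in unrestricted library 2), so the CpGs largely share reads and are not 9 separate measurements. For reads of that number, the exact 95% binomial intervals ran from 4.36 to 34.9% in restricted library 1 and from 39.6 to 67.4% in unrestricted library 2, and did not overlap. These are the lowest and highest libraries and differ in diet too. Between the lowest and highest unrestricted libraries, 4 (11.2 to 37.1%) and 2, the intervals did not overlap either. Those of the lowest and highest restricted libraries, 1 and 3 (27.9 to 61.9%), overlapped. PCR copies cannot be told apart here, so counting error is all that such intervals cover. Read strand by strand, the restricted mean was lower on each, with differences of -13.03 points on the plus and -10.4 points on the minus strand, but single libraries did not read alike on both. Unrestricted library 2 was at 70.5% on the plus and 42.7% on the minus strand, and unrestricted library 3 at 20.6 and 51.9%. Of the 9, the CpG of smallest p lies 53 bp inside the gene and differed by -11.2 points (adjusted p = 0.622, logistic model over 191637 CpGs).

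**Figure D1:**
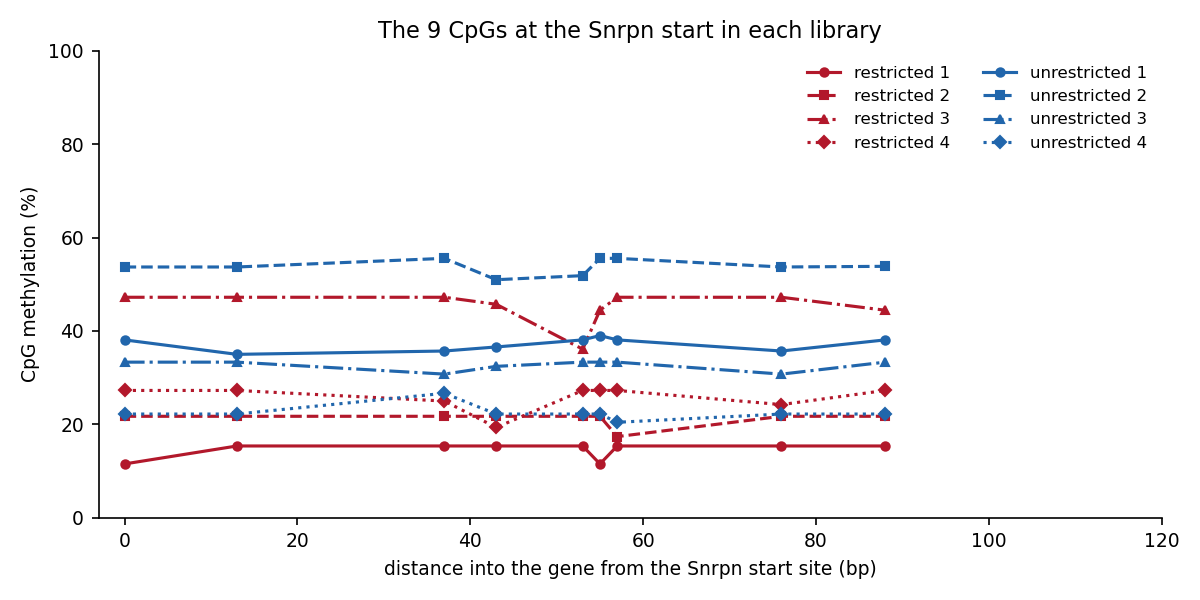
Methylation (%) of each of the 9 CpGs at the Snrpn start against distance from the start site (bp), 1 line per library, restricted in red and unrestricted in blue. Lines are nearly flat within a library and spread between libraries, from 14.5% on average in restricted library 1 to 53.8% in unrestricted library 2.

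Restricted libraries 1 and 2 also stood apart over the whole genome. Weighting CpGs by their reads changed the mean level by -2.24 and -3.28 points in these, and by -0.575 to 0.817 points in each other library. With both left out, the difference of the Snrpn start was -1.04 points. Leaving out single libraries gave -16.0 to -4.08 points. With the dispersion fixed at 1, which counts every read as independent, the tile was called (adjusted p = 1.81e-04); that setting called 1.79% of all tiles.

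At the lower minimum the partly methylated stretch reached 488 bp inside the gene. The tile chr7:60004001-60005000, with 8 CpGs and 5 to 15 reads at each in each library, was at 30.6% ± 17.1 in the restricted and 37.1% ± 24.1 in the unrestricted group (adjusted p = 0.991, logistic model over 75092 tiles at that minimum). The highest library there was unrestricted library 4, at 72.5%, which was the lowest of its group at the neighbouring tile (24.6% at the same minimum). The order of the libraries therefore differed between adjoining tiles. Read counts in a library were nearly equal at the 8 CpGs (11 or 12 in unrestricted library 4), so these largely share reads. Whether the order differs beyond counting error was not tested.

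Partial methylation was uncommon among the start windows that could be measured in these cells. Of 31396 autosomal RefSeq start windows, 6699 had 3 or more measured CpGs, and RRBS selects CpG-rich fragments. Of these 6699, 77 (1.15%) lay between 20 and 80%, the Snrpn window among them, while 98.4% lay below 20%. The windows with fewer measured CpGs are not described by these shares.

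A single CpG far upstream in Snrpn was the only member called, at chr7:60172304. It lies inside the annotated gene body, 167105 bp upstream of the start described above and 32079 bp upstream of the nearest of the other RefSeq start sites of Snrpn that it precedes (exon or intron was not analysed here). Methylated reads were 22 of 39, 9 of 13, 0 of 18 and 9 of 21 in restricted libraries 1 to 4, and 0 of 22, 2 of 47, 1 of 11 and 5 of 46 in unrestricted libraries 1 to 4. As levels these are 56.4, 69.2, 0 and 42.9% against 0, 4.26, 9.09 and 10.9%, so 3 restricted libraries stood above every unrestricted one and restricted library 3 had no methylated read. The difference was 36.1 points, from 6.05% ± 4.91 to 42.1% ± 30.1 (SD, n = 4 each; adjusted p = 0.00205, logistic model). This was 1 call among 43 tested member CpGs, where 0.0997% of all tested CpGs were called, and 2 member CpGs had an unadjusted p under 0.05 (5.62% of all tested CpGs did).

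The strands of that CpG did not read alike. On the plus strand methylated reads were 7 of 10, 5 of 5 and 5 of 5 in restricted libraries 1, 2 and 4 and 1 of 1 and 2 of 5 in unrestricted libraries 2 and 4, and the other 3 libraries had no plus-strand read. On the minus strand they were 15 of 29, 4 of 8, 0 of 18 and 4 of 16 against 0 of 22, 1 of 46, 1 of 11 and 3 of 41. With the minus strand alone, at 5 reads in all 8 libraries, the difference was 27.0 points (adjusted p = 0.0145, with 0.0678% of all such cytosines called); this alternative was chosen after seeing the data. The neighbouring member CpG, at chr7:60172407, was at 4.05% ± 3.33 and 0.595% ± 1.19 and was not called. At that neighbour, restricted library 3 and unrestricted libraries 1 and 3, without plus-strand reads at the called CpG, had 26, 33 and 20 of them. The cause of the strand difference was not tested. Whether a sequence variant in these outbred animals or a mapping problem affects the called CpG was not tested either.

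The call did not hold in every fit. It was absent with limma on M-values (adjusted p = 0.644, 0% of CpGs called). It was also absent without restricted libraries 1 and 2, the highest at this CpG (15.4 points, adjusted p = 0.496, with 0.38% called). With the replicate number as a paired block the adjusted p was 0.836, and 0% of CpGs were called. The exact two-sided permutation test of the 8 levels gave p = 0.143. The call was kept in all 8 fits that leave out 1 library, where the difference ran from 27.0 to 50.1 points. With the dispersion fixed at 1, which counts every read as independent, it was kept too (adjusted p = 3.08e-08, logistic model).

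**Figure D2:**
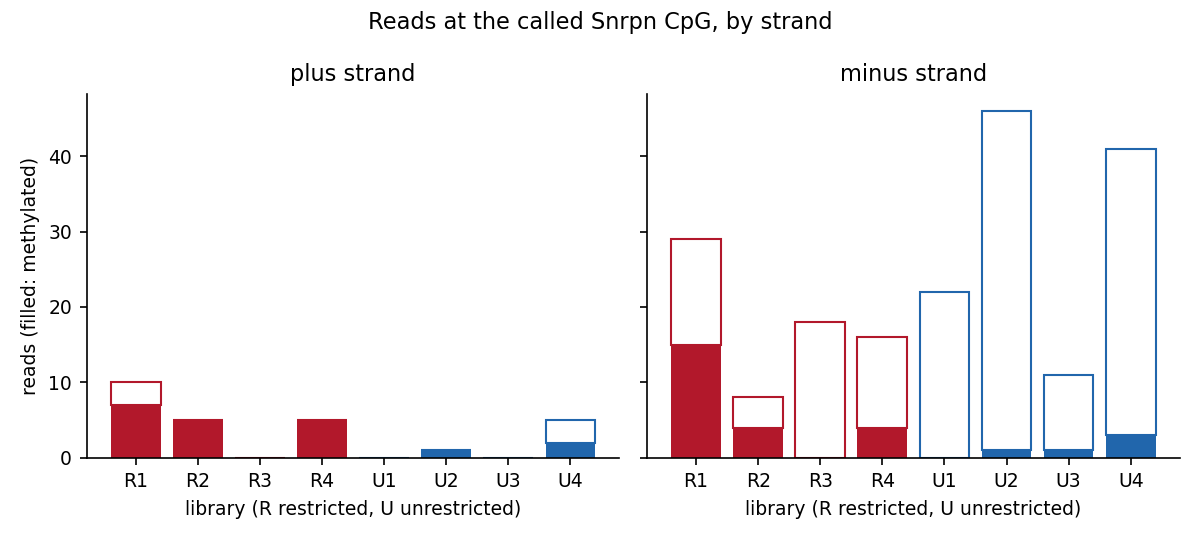
Reads (y axis) at the called Snrpn CpG on each strand in the 4 restricted (R1 to R4) and 4 unrestricted (U1 to U4) libraries, methylated reads filled. Most methylated reads sit in R1, R2 and R4, R3 and U1 have none, U2, U3 and U4 have 2, 1 and 5 over both strands, and plus-strand reads are few or missing.

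At the lower minimum 2 more Snrpn tiles upstream had an unadjusted p under 0.05, and neither was called. The one that holds this CpG (chr7:60172001-60173000) was at 15.4% ± 10.7 against 2.22% ± 1.92 (adjusted p = 0.714 over all tiles by the logistic model). The other (chr7:60163001-60164000; 5 CpGs) was highly methylated, at 92.5% ± 3.38 against 86.4% ± 4.08, with overlapping groups (adjusted p = 0.850).

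Magel2, Mkrn3 and Ndn are single-exon genes that are expressed from the paternal copy under the Snrpn control region. In all 3, methylation was low next to the start and high further along. In Magel2 (chr7:62376979-62381640), which encodes an adaptor of a ubiquitin ligase that acts on the retromer, the 8 CpGs between 252 and 387 bp inside the gene averaged 14.8% ± 4.92 in the restricted and 10.2% ± 5.44 in the unrestricted group (lower minimum). The 11 CpGs from 411 to 771 bp averaged 24.9% ± 2.86 and 28.3% ± 4.54, and the 7 from 810 to 1071 bp 76.2% ± 6.97 and 74.8% ± 6.20. This rise had exceptions in single CpGs. The CpG 479 bp inside the gene had no methylated read in 159 reads (25 plus, 134 minus; a count of 0 allows up to 1.89%), while CpGs within 100 bp of it reached 49.8%.

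Of the Magel2 tiles at 10 reads, the one nearer the start (chr7:62377001-62378000; 8 CpGs) was at 40.6, 35.6, 39.6 and 37.4% in restricted and 38.6, 35.6, 34.4 and 38.1% in unrestricted libraries 1 to 4. The next (chr7:62378001-62379000; 3 CpGs) was at 84.3, 91.7, 88.9 and 96.3% against 82.4, 87.6, 86.0 and 95.01%. The groups overlapped at both, with differences of 1.60 and 2.56 points in unweighted means (adjusted p = 0.773 and 0.802, logistic model). The model pools a tile's reads over its CpGs, so its p-values need not go with the sign of these differences. Weighted by reads, the Magel2 gene level was lower with restriction (-5.21 points). The Magel2 CpG 329 bp inside the gene was the other with an unadjusted p under 0.05, at 17.6% ± 7.10 against 6.28% ± 4.54 (adjusted p = 0.622). Among CpGs of at least 10 reads in all libraries, the highest of the Snrpn domain lies 1011 bp inside Magel2, at 94.7% ± 3.95 and 97.4% ± 2.15. Further along, 3218 to 3236 bp inside the gene, a tile at the lower minimum (chr7:62380001-62381000; 3 CpGs, 7 to 47 reads at each) did not overlap between groups. Its restricted libraries read 82.2 to 87.5% and its unrestricted ones 88.5 to 92.9%, a difference of -5.06 points. It was not called (adjusted p = 0.873), and at this minimum 0.00133% of all tiles were called. It was the only one of 23 tested member tiles whose groups did not overlap, as 2.52% of all tiles at this minimum did not.

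Mkrn3 (chr7:62417593-62420153) encodes a makorin ring finger protein that restrains the onset of puberty. Its 4 CpGs at 10 reads lie 891 to 953 bp inside the gene (tile chr7:62419001-62420000), at 73.7, 36.4, 67.2 and 75.0% in restricted libraries 1 to 4 and 80, 70.8, 66.7 and 72.9% in unrestricted libraries 1 to 4. Restricted library 2, with 11 reads at each CpG, was far below the other 7. The difference of -9.53 points (63.1% ± 18.1 against 72.6% ± 5.58; adjusted p = 0.773) became -0.628 points without that library. At the start, from 67 bp before the start site to 303 bp inside the gene, 16 CpGs at the lower minimum averaged 16.9% ± 11.4 and 19.4% ± 1.79. The tile over the start (chr7:62420001-62421000; 9 CpGs, among them those in capitals above) read 5.56, 0, 13.1 and 27.8% against 20.3, 20.3, 19.1 and 18.7%, on 1 to 29 reads at a CpG. Restricted libraries 1 to 3 lay below all the unrestricted ones, and restricted library 4, which had only 1 or 2 reads at each CpG, lay above them (unadjusted p = 0.00650, adjusted p = 0.839). The difference of -7.99 points was -13.4 points without restricted library 4 and -4.13 points without restricted library 2, neither of them called (adjusted p = 0.755 and 0.868). Leaving out single libraries here was chosen after seeing the data.

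Ndn (chr7:62348277-62349928) encodes necdin, a MAGE family protein of neurons and progenitor cells. Its 13 CpGs from 235 to 376 bp inside the gene averaged 8.68% ± 2.39 in the restricted and 11.6% ± 5.27 in the unrestricted group. The 3 CpGs from 2994 to 3101 bp, beyond the annotated end, averaged 59.95% ± 4.72 and 68.3% ± 8.20. All Ndn values rest on 6 to 34 reads per CpG and library, and neither of its tiles was called (adjusted p = 0.873 for each, logistic model at the lower minimum).

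**Figure D3:**
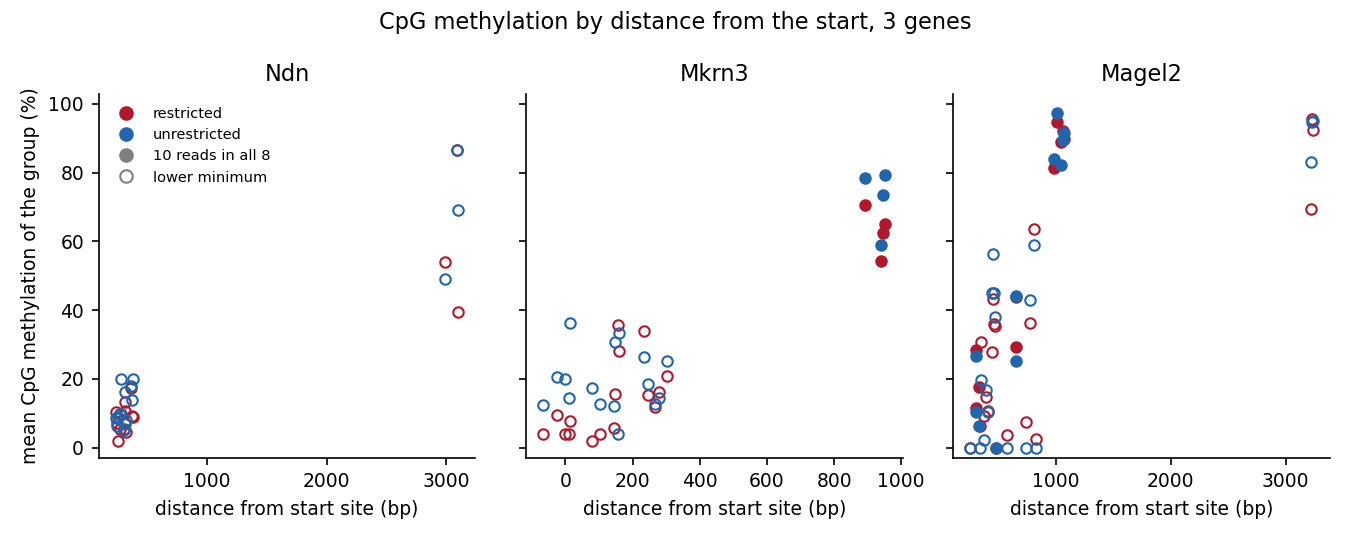
Group mean methylation (%) of each CpG against distance from the start site (bp) for Ndn, Mkrn3 and Magel2, restricted in red and unrestricted in blue, filled for 10 reads in all 8 libraries and open for the lower minimum. CpGs within 400 bp of the start average 30.7% or less over the libraries, and those beyond 800 bp lie mostly above 50% in both groups.

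Ube3a (chr7:59228750-59310837), a ubiquitin ligase that neurons express from the maternal copy only, was unmethylated at its start in every library. Its 68 CpGs span from 10 bp before to 774 bp inside the gene and held 3 methylated calls among 13285, where 1 read gives a call at each CpG it covers. These lay in restricted libraries 1 and 4, at 3 different CpGs, and the other 6 libraries had none. Neighbouring CpGs share reads, so the calls are not independent: with 12 to 44 reads at a CpG in a library, a count of 0 allows a level of up to 25% at the shallowest and 6.82% at the deepest. One tile (chr7:59228001-59229000; 30 CpGs) had no methylated call and was not tested, and the other (chr7:59229001-59230000; 38 CpGs) had a difference of 0.0712 points (unadjusted p = 0.0403, adjusted p = 0.773). It was the only 10-read member tile with an unadjusted p under 0.05.

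Peg3 (chr7:6703892-6730462) encodes a zinc finger protein expressed from the paternal copy, and Usp29 (chr7:6730559-6967220), a ubiquitin protease gene, starts 164 bp away in the opposite direction from the same control region. That region was not reached at 10 reads in all libraries. Over all libraries together, 14 CpGs from 92 to 432 bp inside Peg3 had 12 to 65 reads each and a median level of 38.5%, with 10 of them between 20 and 80%. Each of the 10 had either 65 or 40 reads, split over the libraries in the same way. They largely share reads and are not 10 separate measurements. The deepest had 26 methylated of 65 reads (40.0%, exact 95% binomial interval 28.0 to 52.9%), with 4 to 13 reads per library. Of these, 3 CpGs passed the lower minimum (tile chr7:6730001-6731000), with the same 1 to 7 reads at each of the 3 in a library. Their levels were 14.3, 33.3, 0 and 0% in restricted and 33.3, 40, 25 and 20% in unrestricted libraries 1 to 4. The 0% of restricted library 4 rests on 1 read. Restricted library 2 overlapped with the unrestricted libraries, and the difference of -17.7 points was not called (adjusted p = 0.873, logistic model).

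The 4 Peg3 CpGs at 10 reads lie 18831 to 18945 bp inside the gene (tile chr7:6711001-6712000) and were almost fully methylated. Levels were 95.8, 96.9, 91.3 and 95.9% in restricted and 95.7, 96.4, 94.9 and 98.1% in unrestricted libraries 1 to 4, a difference of -1.27 points with overlapping groups (adjusted p = 0.785). The highest CpG of the domain at that depth is among them, at 98.6% ± 2.78 and 97.1% ± 2.54, and so is 1 of its 3 CpGs of smallest p (chr7:6711486-6711486; -2.85 points, adjusted p = 0.622).

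The 16 Usp29 CpGs begin 39808 bp from its start and fell into separate levels: 11 below 20%, 3 from 20 to 80% and 2 above 80%. Its tile at chr7:6770001-6771000 was at 1.40% ± 1.34 and 0.840% ± 0.111. The tile chr7:6913001-6914000, with 7 CpGs, had 3 methylated calls of 1334, all in unrestricted libraries 2 and 3 (adjusted p = 0.892 and 0.773, logistic model). The CpG of smallest p in the Peg3 domain lies 39852 bp inside Usp29, at 1.77% ± 2.06 against 0% in the unrestricted group (adjusted p = 0.622). The next, 70047 bp inside, was the only one of 43 tested member CpGs whose groups did not overlap, as 1.8% of all tested CpGs did not, at 85.0, 87.5, 81.3 and 87.5% against 77.3, 75.0, 76.0 and 78.6%. On 16 to 36 reads it was not called (adjusted p = 0.622; exact permutation p = 0.0286, the lowest possible value for groups of 4).

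At the lower minimum Usp29 also held tiles near 50% and above 85%. One tile (chr7:6781001-6782000; 7 CpGs) was at 50.8% ± 5.17 and 52.4% ± 2.17. The tile chr7:6952001-6953000 had an unadjusted p of 0.0290 by the logistic model (52.8% ± 11 against 60.3% ± 2.58, adjusted p = 0.867). Its lowest library was restricted library 2, at 38.1%, with only 3 reads at each CpG from 222304 to 222400 bp inside the gene. In that tile a CpG of 97.9% lay between a pair of CpGs without a methylated read, 1 of them covered by 123 minus-strand reads only and the other by 97 plus-strand reads only.

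Counted together, 0 of 8 tested member tiles were called by the logistic model, where 0.0177% of all tested tiles were, and edgeR's quasi-likelihood test also called 0 of the 8, where it called 0.325% of all. At an unadjusted p under 0.05 there was 1 by the logistic model (6.32% of all tiles) and 1 by edgeR (5.59% of all tiles), the Snrpn start (adjusted p = 0.718). At the lower minimum 0 of 23 were called and 5 had an unadjusted p under 0.05, where 5.71% of all tiles did. Of the 8 tiles 4 were lower and 4 higher with restriction, with a median difference of -0.154 points, against 51.4% lower and a median of -0.00913 points over all tested tiles. Of the 20 tested member CpGs with a level of 20 to 80%, 15 were lower, but 9 of these are the Snrpn start CpGs that share reads. Another 4 are the Mkrn3 CpGs, whose read counts are also nearly equal. Of all tested CpGs, whatever their level, 51.6% were lower, and of all tested tiles of 20 to 80% it was 55.1%.

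**Figure D4:**
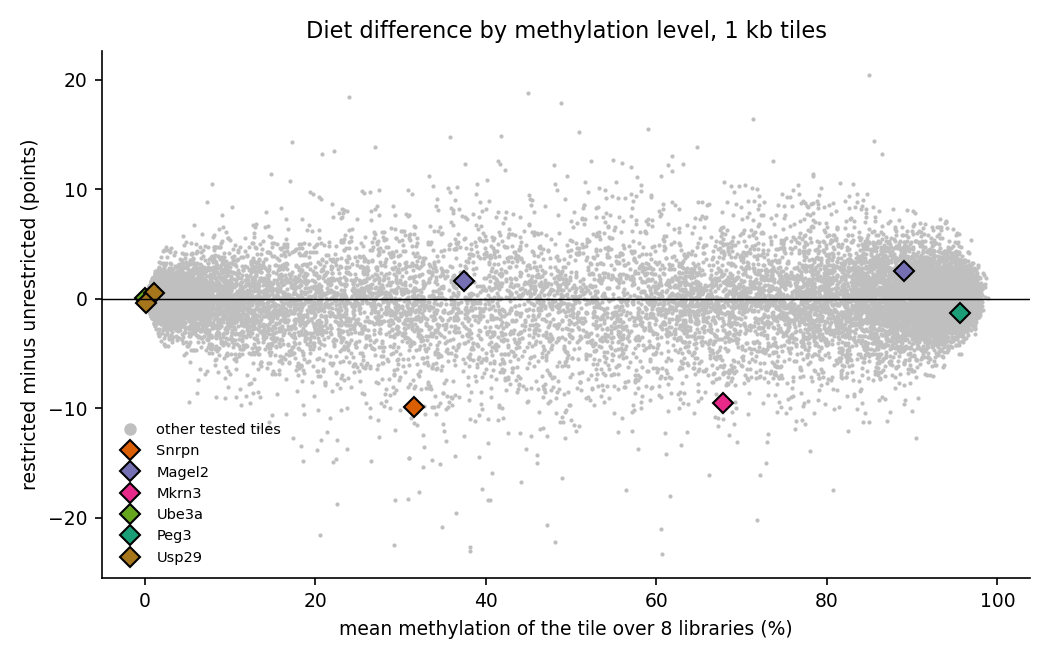
Difference of the tile means (restricted minus unrestricted, percentage points) against mean level over the 8 libraries (%) for the tested 1 kb tiles, members as coloured diamonds. The Snrpn and Mkrn3 tiles lie lowest among the members, at -9.84 and -9.53 points, toward the lower edge of the other tiles of their level.

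Gene levels, the unweighted mean over a gene's CpGs, ran in the order Ube3a 0.0199%, Ndn 20.3%, Usp29 20.5%, Snrpn 28.3%, Magel2 51.5%, Mkrn3 67.8% and Peg3 95.6% over the 8 libraries. This order reflects which CpGs were covered as well as the gene, and Ndn is at the lower minimum. Mkrn3 rests on 4 CpGs, 891 to 953 bp inside the gene. At the lower minimum the Mkrn3 tiles were at 37.7 and 15.6% and those of Magel2 at 27.4, 89.0 and 88.4%. That pair need not keep its order there. Of the 6 neighbouring pairs, Ndn and Usp29 differed by 0.239 ± 3.78 points and in no common direction (higher Usp29 in 4 of 8 libraries; exact two-sided sign-flip permutation p = 0.867). Snrpn exceeded Usp29 by 7.75 ± 9.26 points in 6 of 8 libraries (exact permutation p = 0.0625, adjusted over the 6 pairs 0.075), and Mkrn3 exceeded Magel2 in 7 of 8 (exact permutation p = 0.0234, adjusted 0.0352). The other 3 pairs kept their order in all 8 libraries (exact permutation p = 0.00781, the smallest possible, adjusted 0.0156).

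By diet, gene levels were 26.0% ± 8.21 and 30.5% ± 10.3 for Snrpn, 52.5% ± 1.13 and 50.6% ± 2.20 for Magel2, 20.9% ± 1.10 and 20.1% ± 1.47 for Usp29, and 18.3% ± 2.81 and 22.3% ± 3.59 for Ndn (restricted first, SD, n = 4 each). Those of Peg3 were 94.99% ± 2.51 and 96.3% ± 1.36, and those of Mkrn3 equal its tile values. By limma 0 of 6 member genes were called, with 0 at an unadjusted p under 0.05 and a lowest adjusted p of 0.898, and 0% of 21700 genes were called. Ndn, at the lower minimum, had an adjusted p of 0.877 by limma, where 0% of 27261 genes were called. Exact permutation p-values ran from 0.171 (Ndn) to 0.514. The Snrpn difference of -4.46 points turned to 0.181 points without unrestricted library 2 and to 0.627 points without restricted libraries 1 and 2.

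**Figure D5:**
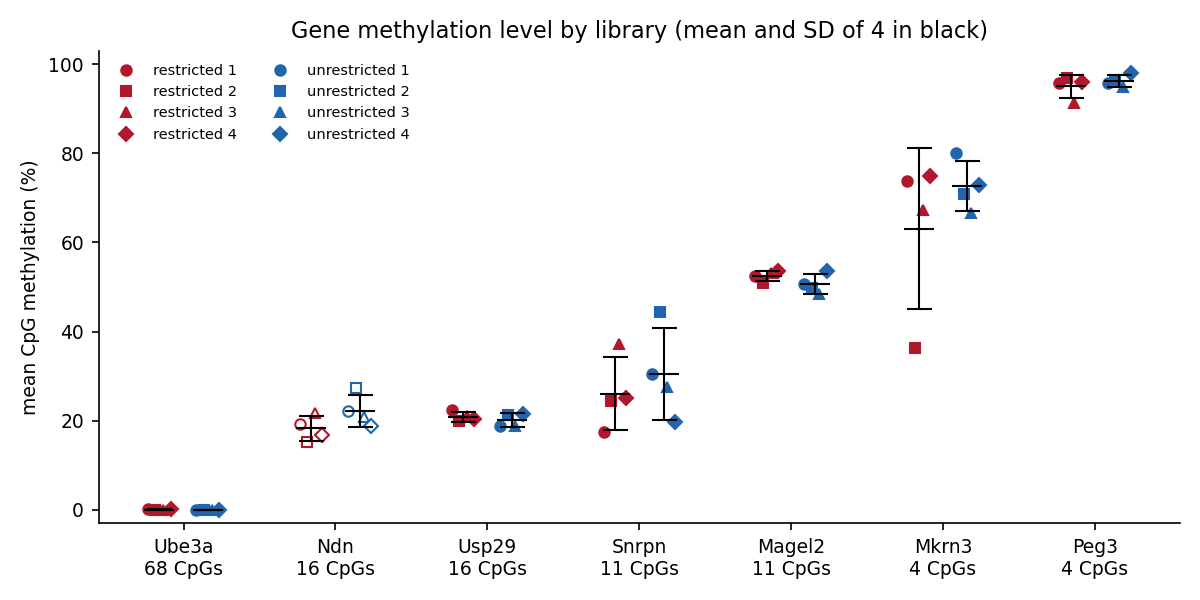
Mean CpG methylation (%) of each gene in each library, restricted in red and unrestricted in blue, with the group mean and SD (n = 4) in black and open symbols for Ndn, which is at the lower minimum. Snrpn and Mkrn3 spread most between libraries, and the groups overlap for all genes.

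The design foresaw setting Snrpn and Peg3 against other imprinted genes at CpGs or tiles of 35 to 65%, but no tile of either gene lay in that range, and the direct comparison of the pair was not run. At the wider range of 20 to 80%, which holds the Snrpn start tile, the difference by diet there was -9.84 points, against -5.98 points over 37 tiles of other listed imprinted genes and -0.554 points over 5323 further tiles. The 37 tiles averaged 36.4% ± 4.06 in the restricted and 42.3% ± 1.93 in the unrestricted group, with 34.7, 31.4, 40.05 and 39.3% in restricted libraries 1 to 4, all below the lowest unrestricted library at 40.2% (exact permutation p = 0.0286). That p-value is the lowest possible for groups of 4, was not among the planned tests and was not adjusted. Restricted libraries 1 and 2, which stood apart over the whole genome, were the lowest there. Restricted library 3, at 40.05%, lay barely below the 40.2%. The Snrpn difference did not exceed that of either set of tiles beyond the spread of the libraries (-3.87 and -9.29 points, exact permutation p = 0.60 and 0.40, adjusted over both 0.60). Without unrestricted library 2 the former turned to 1.21 points.

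Neighbours of the domains and genes that maintain imprints were counted from lists. Of 19 listed neighbours 16 were measured; by limma 0 were called, with 8 lower and 7 higher, and a median difference of -0.0133 points against -0.00334 over all genes. Those of smallest p were Tubgcp5, a gene of the microtubule-nucleating complex (0.0916% ± 0.106 and 0.236% ± 0.0676), Zim1, an imprinted zinc finger gene beside Peg3 (57.4% ± 0.592 and 56.3% ± 1.47), and Snurf, whose 9 CpGs are those of the Snrpn start. Peg3os (4 CpGs) likewise has the values of Peg3, so Snurf and Peg3os, both lower, are not separate from the members. Snhg14 (14 CpGs), driven from the Snrpn start, was also lower (-3.81 points). How many CpGs it shares with Snrpn was not counted. All 15 genes of imprint maintenance were measured; 0 were called by limma, with 8 lower and 7 higher, and a median of -0.00508 points. Smallest p belonged to Dnmt1, the maintenance methyltransferase (35.3% ± 0.486 and 34.0% ± 0.851), Dppa3, which protects maternal marks in the zygote (81.3% ± 2.77 and 86.6% ± 3.55), and Setdb1, a histone H3K9 methyltransferase (4.88% ± 0.885 and 5.74% ± 0.443). Outside the members' own CpGs and tiles, which were left out of this count, no CpG or tile of either list was called by the logistic model. The called Snrpn CpG is therefore not counted here, even where a neighbour's window holds it.

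Among 16103 genes with 10 or more CpGs outside the members' windows, Meioc was nearest to Snrpn in level over the 8 libraries, with a root mean square difference of 5.36 points, followed by Lsm7 (6.18 points) and Gm40881 (6.75 points). Nearest to Peg3 were Gm15199 (1.16 points), LOC115489617 (1.26 points) and Gm39816 (1.56 points). Likeness here is in level only.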

How the data were processed

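RRBS of 8 libraries (4 restricted, 4 unrestricted) was used, with groups and replicate numbers from the labels. The submitters' processing notes list Bismark 0.13.1, Trim Galore 0.3.3, methylKit and the build mm10, without giving their settings. Per the deposited files, each cytosine has a count of reads and the percent called methylated and unmethylated, with no minimum applied (lowest count 1). Methylated reads were recovered as the rounded product, at most 0.0488 from a whole number. Counts summed over all listed cytosines came to 16045992 to 37305007 per library, where 1 read counts at each cytosine it covers. The median was 20 to 44 reads per shared CpG, which limits single CpGs most. Genes were placed by RefSeq's annotation of GRCm38.p6, and all 79519 measured CpGs inside its autosomal start windows read CG.

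Levels are unweighted means over CpGs. Gene levels used CpGs of 5 or more reads per library at the lower minimum, and tiles used all reads there. A CpG in the windows of both Peg3 and Usp29 was counted with Peg3 in tiles. Logistic regression on the methylated and unmethylated reads was fitted to all 1 kb tiles of 3 or more CpGs and to all CpGs. In a tile the reads were pooled over its CpGs, so deeper CpGs weigh more in the test than in the printed difference. The test and that difference can therefore differ in direction. Its F test used a Pearson dispersion moderated as in limma's squeezeVar, rewritten in Python (relative difference from limma 3.58.1 up to 6e-10) and not under 1. Units without a methylated or an unmethylated read were not tested. Gene levels were tested with limma on log2((level + 1)/(101 - level)). P-values were adjusted by Benjamini-Hochberg over all units tested, with calls at an adjusted p under 0.05. For single values the exact permutation test used all 70 splits and was two-sided. Alternatives used edgeR 4.0.16 on tile counts and the settings named in the closing section. The fits were tested on simulated data.

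Every member is reported, with all its tiles at 10 reads, the 3 CpGs of smallest p and the highest and lowest CpG of each domain, and the 3 genes of smallest p of each list. The lowest CpGs were at 0% in every library, 66 in Ube3a and Magel2 and 5 in Usp29. The members and lists were chosen with earlier results of these data known.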

Additional observations from a re-analysis of the deposited data

Results flagged for a closer look

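In 2 of 85 groups of 4 libraries (gene levels, tiles and named CpGs), 1 library lay far from the other 3, by a test that flags about 1 group in 20 by chance. The Magel2 tile at chr7:62380001-62381000, at the lower minimum, was at 82.2% in restricted library 4 against 86.7 to 87.5% in the other restricted libraries. The Peg3 CpG at chr7:6711474-6711474 was at 94.4% in restricted library 1 against 100% in each of the other 3.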

How the results depend on the processing

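The absence of calls among member genes held in all 16 alternatives tried for them, and among member tiles in 19 of 20, the exception being the dispersion fixed at 1, which called 1 tile (Snrpn start). The count of called member CpGs was 1 in each fit that left out 1 library and with the dispersion fixed at 1. It was 0 with limma on M-values, without restricted libraries 1 and 2, and with the replicate block. At 20 reads and for each strand on its own at 10 reads it was also 0 (the called CpG could not be tested in either). The replicate numbers were not treated as pairs: libraries of the same number correlated at 0.0159, -0.117, -0.0512 and 0.0218 in their deviations over 5363 tiles. The replicate block changed no other call, and for Snrpn against other imprinted tiles it gave p = 0.625 (exact sign-flip permutation). Signs turned for the Magel2 gene level (-5.21 points with read weighting and -0.353 at the lower minimum), the Usp29 gene level (-0.0397 and -2.39 under the same settings), the Snrpn gene level (0.627 without restricted libraries 1 and 2; -8.20 to 0.181 without 1 library) and Snrpn against other imprinted tiles (1.63 without restricted libraries 1 and 2; -8.80 to 1.21 without 1 library). The cause was not tested. The comparison of Snrpn with Peg3 was not run, and none of its alternatives. At the Peg3 start, the Mkrn3 start and Ndn, depth limits what can be shown, with as few as 1, 1 and 6 reads at a CpG.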
